A study of Mus musculus with 24 samples.

Results

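The genes described here encode, or derive from genes that encode, the H2A histone variants whose making is not confined to S phase. They were chosen by name, with no use of their measured values, as the rows of the count tables whose symbol is *H2afx*, *H2afz*, *H2afv*, *H2afj*, *H2afy*, *H2afy2* or *H2afy3*. All 7 symbols were listed among the 24456 genes of each table, and all 7 passed the filter on low counts, which kept 17170 genes. RNA was measured in testes of wild-type (WT) mice and of mice homozygous for the *Atad2* LacZ ΔNeo-Exon12 allele (*Atad2* KO), collected on days 20, 22, 24 and 26 post-partum (PP), as the first wave of germ cells passes from meiosis to spermatids. In this allele a *lacZ* cassette is spliced to the first exons of *Atad2*, and a Cre recombinase driven ubiquitously by the *CMV* promoter removed the neo cassette and exon 12 of *Atad2*, so that the loss is not limited to germ cells. Of 24 libraries, days 20 and 22 had 4 per genotype each and days 24 and 26 had 2 per genotype each. The mouse strain is not given in the sources used here. The labels name testis and the study's methods take RNA from testes, but the labels' extraction protocol also mentions purified spermatogenic fractions, and the libraries are read here as whole testis.

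Bulk canonical H2A is made from replication-dependent genes, whose messages carry no poly(A) tail and are used in S phase. The variants come from single genes whose transcription is not confined to S phase, and each is placed in chromatin at its own sites. H2A.X, from *H2afx*, is phosphorylated around DNA breaks and, in male meiosis, over the unsynapsed sex chromosomes, where the mark is needed for their silencing. H2A.Z comes from a pair of genes, *H2afz* and *H2afv*, and sits at promoters and at the boundaries of heterochromatin. MacroH2A, from *H2afy* and *H2afy2*, carries a large macro domain and is known for inactive chromatin, the inactive X and the sex body. H2A.J, from *H2afj*, differs from canonical H2A mainly at its tail. *H2afy3* is a retrocopy: the annotation lists it as a processed pseudogene, so its RNA is described here as a transcript and not as a source of protein.

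The genes lie on different chromosomes of mouse build mm10. *H2afx* (ENSMUSG00000049932.3) is a gene of 1 exon at chr9:44334694-44336077 on the plus strand. *H2afz* (ENSMUSG00000037894.13) lies at chr3:137864487-137866922 on the plus strand and *H2afv* (ENSMUSG00000041126.16) at chr11:6427229-6444443 on the minus strand. *H2afj* (ENSMUSG00000060032.6) lies at chr6:136808244-136810074 on the plus strand. *H2afy* (ENSMUSG00000015937.15) lies at chr13:56073619-56136361 and *H2afy2* (ENSMUSG00000020086.6) at chr10:61738665-61784147, both on the minus strand. *H2afy3* (ENSMUSG00000101167.1) has 1 exon of 1112 bases at chr15:62218221-62219332 on the minus strand, inside the long non-coding gene *Pvt1*, which is read from the plus strand. RefSeq names these genes *H2ax*, *H2az1*, *H2az2*, *H2aj*, *Macroh2a1*, *Macroh2a2* and *Macroh2a3*, and lists the last as a transcribed pseudogene from 62217541 to 62219451.

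Aligned to the coding sequence of *H2afy2*, the *H2afy3* exon matched 1073 of 1106 aligned bases, an identity of 97.0% with 33 mismatches, against 73.0% for the closer of the annotated *H2afy* coding sequences. A block of 180 bases shows how near the copy is to its parent. It runs 5′ to 3′ along the transcript strand, from base 384 to 563 of the *H2afy3* exon and from base 387 to 566 of the *H2afy2* coding sequence, in GENCODE transcripts of mm10, and capitals mark its 7 mismatches.
H2afy3: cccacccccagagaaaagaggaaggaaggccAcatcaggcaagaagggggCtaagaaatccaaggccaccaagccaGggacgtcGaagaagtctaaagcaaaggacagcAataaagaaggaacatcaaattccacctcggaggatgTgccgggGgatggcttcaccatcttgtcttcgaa
H2afy2: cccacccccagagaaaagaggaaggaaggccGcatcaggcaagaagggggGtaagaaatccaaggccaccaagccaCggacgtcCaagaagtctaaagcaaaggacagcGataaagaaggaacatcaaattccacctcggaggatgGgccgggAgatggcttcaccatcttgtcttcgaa
The mismatches are spread along the exon, and the longest run identical between the genes was 92 bases. Reads were 75 bases at each end, and pairs that aligned to more than 1 place were not counted. Of all 75-base words of the *H2afy3* exon, 3.9% also occurred in an annotated transcript of another gene, so most pairs could be placed. For *H2afy2* the share was 8.9%, for *H2afx* 6.9%, for *H2afy* 6.3%, for *H2afj* 3.8% and for *H2afv* 0%. For *H2afz* it was 61.7%, through 6 other genes, most of them unnamed gene models, so *H2afz* may be under-counted. How its pairs aligned was not examined.

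The libraries held 10709667 to 19491935 counts assigned to genes. The library WT_d20_2 stood apart, with 13.7% of its pairs aligning to several places, and KO_d22_4 did so at the low end, with 4.74%, against 5.98% to 9.16% in the other libraries. Values without them are given beside several results that rest on them. *Atad2* itself was lower in the KO libraries at every day, with no overlap between genotypes, at 34.0 ± 3.01 CPM against 109 ± 42.6 at day 20 (mean ± SD, n = 4 each). CPM stands for counts scaled to a common library size, here with TMM, the trimmed mean of M values. All 10 Sertoli, 7 Leydig, 6 peritubular and 7 macrophage markers passed the filter on low counts beside those of germ cells, so somatic and germ cells were both sampled. At day 20, 9 of 10 round spermatid markers were called higher in KO (median log2 fold change 3.61), as were 5 of 9 elongating spermatid markers (median 3.47). Of all 17170 genes, 511 were called higher at that day. With WT_d20_2 left out 260 were, and with WT_d20_3 left out 102. Summed levels, which lean on the most abundant markers, were 125 to 263 CPM in KO and 49.0 to 154 CPM in WT for round spermatids at day 20, and 1250 to 1400 CPM and 1090 to 1110 CPM at day 26.

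*H2afy3* was the variant gene that differed by genotype. In WT testis its level was 13.4, 7.27, 7.51 and 8.71 CPM in the libraries of day 20, and 16.8, 14.5, 17.3 and 17.8 CPM in those of day 22. At day 24 it was 12.1 and 13.2 CPM, and at day 26 it was 14.4 and 17.0 CPM. In *Atad2* KO testis it was 2.68, 2.81, 2.51 and 2.30 CPM at day 20, and 2.72, 6.25, 3.23 and 4.56 CPM at day 22. It was 3.25 and 4.97 CPM at day 24, and 4.20 and 5.91 CPM at day 26. Every KO library was below every WT library of its day, as in 1.68% of all genes at day 20 and 4.45% at day 22, and the highest KO value of the whole series, 6.25 CPM, was below the lowest WT value, 7.27 CPM. Over all genes tested, 0.25%, or 43 genes, had KO below WT without overlap at every day.

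These levels rest on modest numbers of read pairs. The KO libraries held 34 to 43 *H2afy3* pairs at day 20 and 45 to 104 at day 22, and the WT libraries held 69 to 171 and 173 to 348. The lowest count belonged to library KO_d20_4 and the highest to WT_d22_4, which is also the most deeply sequenced library.

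**Figure D1:**
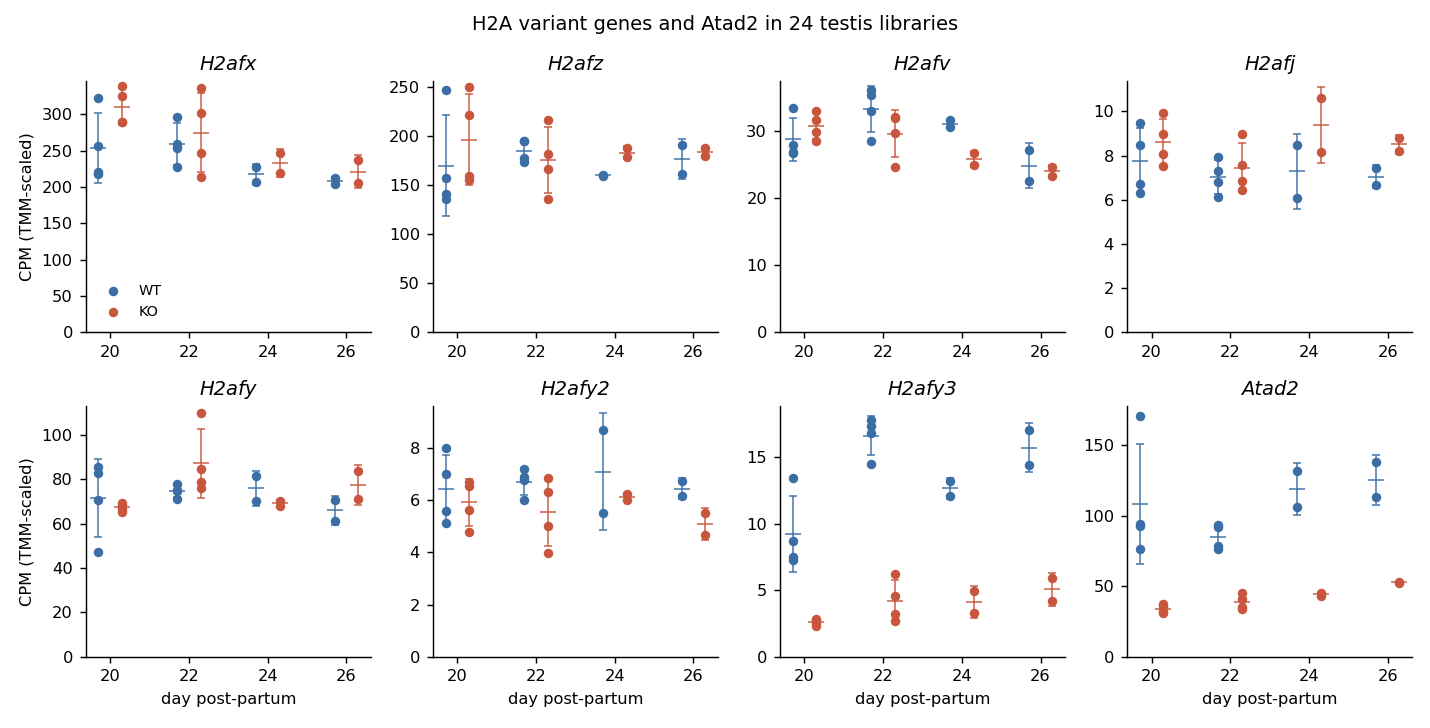
Level of each H2A variant gene and of *Atad2* in the 24 libraries (y axis, TMM-scaled CPM from 0, own scale in each panel; x axis, day post-partum). Points are libraries, WT in blue and *Atad2* KO in red, and the bars are mean ± SD (n = 4 at days 20 and 22, n = 2 at days 24 and 26). Only in the *H2afy3* and *Atad2* panels do the genotypes stay apart at all 4 days.

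Between genotypes, edgeR's quasi-likelihood test with Benjamini-Hochberg adjustment gave a log2 fold change of -1.84 for *H2afy3* at day 20 (SE 0.238, adjusted p = 0.000465), a level 3.58-fold lower in KO (95% interval 2.54 to 5.04). At day 22 it was -1.98 (SE 0.227, adjusted p = 4.91e-05), or 3.96-fold lower. At days 24 and 26, with 2 libraries per genotype, the values were -1.62 (SE 0.322, adjusted p = 0.0571) and -1.63 (SE 0.316, adjusted p = 0.0556), which did not pass the threshold of 0.05. Averaged over the 4 days, KO stood at -1.77 on that scale (SE 0.141, adjusted p = 8.89e-08), 3.40-fold lower in KO (95% interval 2.78 to 4.17). By p-value this was number 6 of the 17170 genes, and by size it was number 91 among the lowest. The joint test of the KO effect between days gave *H2afy3* an adjusted p of 0.986, and it called 0 of 7 members and 0.00582% of all genes, so the days that passed and those that did not are not shown to differ. Without WT_d20_2 the day 20 value was -1.94 (adjusted p = 0.000272). With the stage score, the round spermatid marker score of a library minus its pachytene marker score, as a covariate, the value was -1.90 at day 20 and missed the threshold (adjusted p = 0.0548), while the mean of the days was -1.79 (adjusted p = 1.44e-06). Over all alternatives the adjusted p of *H2afy3* ran from 9.64e-10 to 0.0548 at day 20, from 2.89e-13 to 0.00265 at day 22, from 0.00199 to 1 at day 24, from 0.00193 to 0.44 at day 26 and from 2.76e-29 to 6.54e-06 over the mean of the days.

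Set against all genes, 1 of 7 members was called at day 20, where 3.34% of all genes were called and 0.361% were called lower. At day 22 it was again 1 of 7, against 2.51% of all genes called and 1.25% called lower. At day 24 it was 0 of 7, against 0.0874%, and at day 26 it was 0 of 7, against 0.0466%. Over the mean of the days it was 1 of 7, against 7.08% of all genes called and 3.56% called lower. With 1 library left out, the share of all genes called ran from 0.882% (without WT_d20_3) to 4.55% at day 20, from 0.350% (without WT_d22_4) to 5.0% at day 22, up to 0.137% at day 24, up to 0.600% (without WT_d20_2) at day 26 and from 1.73% (without WT_d24_2) to 10.1% over the mean. At days 24 and 26 *H2afy3* was the one member with an unadjusted p under 0.05, and DESeq2 called it at both (adjusted p = 0.00199 and 0.00204), where it called 0.243% and 0.948% of all genes.

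**Figure D2:**
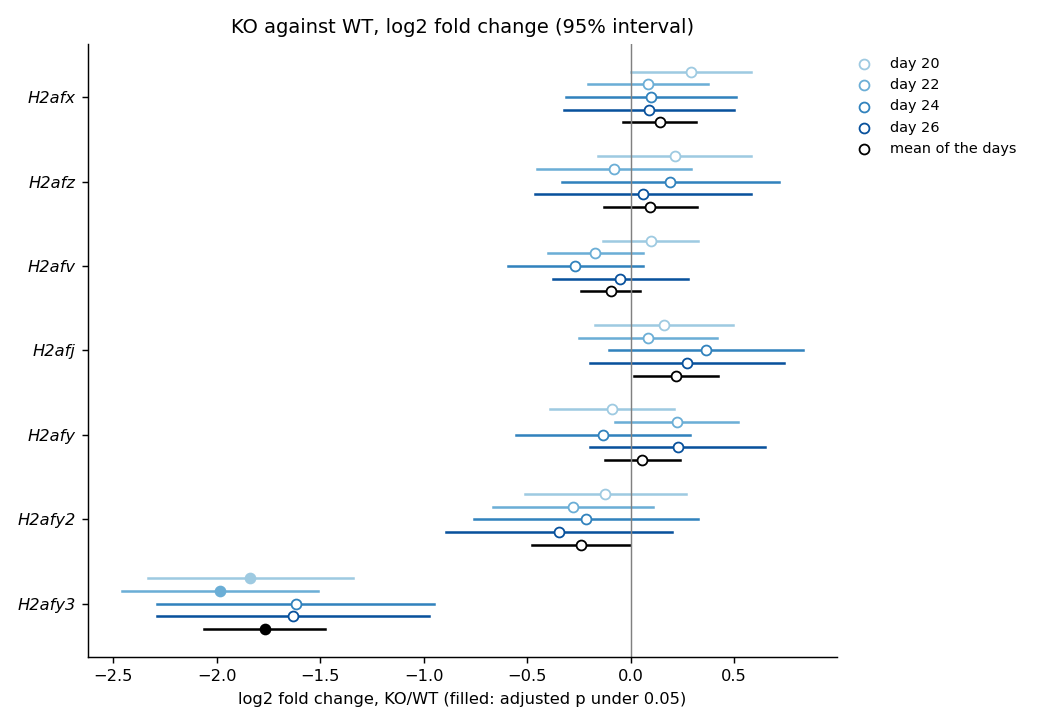
Log2 fold change of KO against WT (x axis) for each variant gene (y axis) at each day and over the mean of the days, with 95% intervals from the edgeR fit. Filled points passed the threshold of 0.05 on the adjusted p-value. The *H2afy3* values lie between -1.98 and -1.62, and those of the other 6 genes between -0.35 and 0.36.

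Levels per kilobase of exon put the copy beside its parent. In WT, *H2afy3* stood at 8.30 ± 2.58 CPM per kb at day 20 and 14.9 ± 1.33 at day 22 (SD, n = 4 each), against 2.95 ± 0.607 and 3.09 ± 0.238 for *H2afy2*. In KO it stood at 2.32 ± 0.199 and 3.77 ± 1.42, against 2.72 ± 0.408 and 2.55 ± 0.600 for *H2afy2*. Within a WT library *H2afy3* was 2.10 to 5.15 times as high as *H2afy2* per kilobase at day 20 and 4.18 to 5.50 times at day 22. In the KO libraries of these days the ratio was 0.672 to 1.10 and 0.922 to 2.25. The copy was thus above its parent in every WT library of days 20 and 22, while the KO ratios depend on the length taken for the copy. With the longer RefSeq span of 1911 bases as its length, the mean WT level of *H2afy3* was 4.83 CPM per kb at day 20 and 8.69 at day 22, above *H2afy2*, and the mean KO level was 1.35 and 2.19, below *H2afy2*. The KO ratios of day 20 were then all below 1, from 0.391 to 0.638.

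The surroundings of *H2afy3* were examined after its values had been seen. *H2afy3* lies on the same chromosome as the targeted gene, 4.08 Mb from the end of *Atad2* (chr15:58094044-58135082). Its host *Pvt1*, of which 109 exonic bases overlap the *H2afy3* exon on the opposite strand, was 4.81 ± 2.50 CPM in WT and 3.12 ± 0.404 CPM in KO at day 20 (SD, n = 4 each), with overlapping libraries. The high WT library was WT_d20_2, at 8.53 CPM, and the log2 fold change was -0.60 with it and -0.21 without it. At day 22 *Pvt1* was 4.14 ± 0.941 CPM in WT and 2.32 ± 0.552 CPM in KO, with no overlap (-0.82, adjusted p = 0.118). At day 24 it was 5.21 and 4.55 CPM in WT and 3.45 and 2.55 CPM in KO (-0.70). At day 26 it was 6.14 and 4.52 CPM in WT and 1.31 and 1.72 CPM in KO (-1.81, SE 0.396, adjusted p = 0.0813), beside -1.63 for *H2afy3*. *Pvt1* averaged -0.98 on the log2 scale over the days (SE 0.167, adjusted p = 0.00154 by edgeR). Counting used the strand, so pairs from *Pvt1* and *H2afy3* were told apart by direction. *Myc*, the growth regulator next to *Pvt1*, was at -0.48 (SE 0.172, adjusted p = 0.0884).

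Of 133 annotated genes within 5 Mb of *Atad2*, 38 were tested, and 7 of them, or 18.4%, were called over the mean of the days, against 7.08% of all genes. Without *H2afy3*, whose value prompted this look, it was 6 of 37, or 16.2%. On single days 2 of 38 were called at day 20 and at day 22, *H2afy3* being 1 of them each time, against 3.34% and 2.51% of all genes. At days 24 and 26 it was 0 of 38, against 0.0874% and 0.0466%. Of the 7, *Slc22a22* was higher in KO and *Ext1*, *Mal2*, *Col14a1*, *Fbxo32*, *Pvt1* and *H2afy3* were lower. *Fbxo32*, 0.04 Mb from *Atad2*, was at -0.73 (SE 0.139, adjusted p = 0.00443). The median log2 fold change of the 38 was -0.12, and -0.09 without *H2afy3*, against 0.01 over all genes. The KO allele and any DNA linked to it on chromosome 15 cannot be told apart in this design, and the part of linkage in the *H2afy3* difference was not tested.

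**Figure D3:**
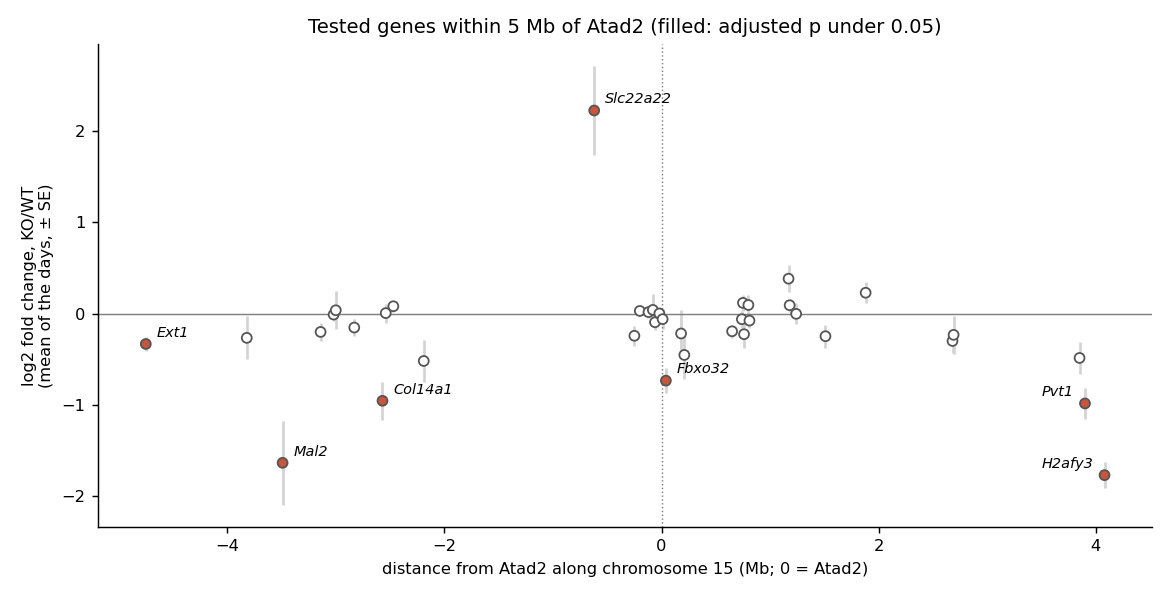
Log2 fold change of KO against WT over the mean of the days (y axis, ± SE) against distance from *Atad2* along chromosome 15 (x axis, Mb) for the 38 tested genes within 5 Mb. Filled points passed the threshold of 0.05 on the adjusted p-value, 6 below and 1 above 0, and *H2afy3* at 4.08 Mb is the lowest of them at -1.77.

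The genes whose levels most resembled *H2afy3* over the 24 libraries were *Asb4*, with a Pearson r of 0.959, *Mdga2* with 0.934 and *A330076C08Rik* with 0.927. These are descriptions across libraries that share genotype, day and depth.

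None of the 6 protein-coding variants was called between WT and KO. Across 6 genes and 5 comparisons of genotype, none of the 30 results passed the edgeR test, 3 had an unadjusted p under 0.05, and DESeq2 called none. The 3 were *H2afx* at day 20, where 12.5% of all genes had such a p, and *H2afj* and *H2afy2* over the mean of the days, where 23.2% had. Their log2 fold changes lay between -0.35 and 0.36, and the 95% intervals reached from -0.89 to 0.83, and differences up to those bounds remain possible at the days with 2 libraries per genotype.

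*H2afx* had a median of 178 CPM per kb over the libraries, the highest as counted, but *H2afz*, at 101, may be under-counted and is not ranked below it. At day 20 it was 339, 325, 289 and 289 CPM in KO and 218, 322, 220 and 256 CPM in WT. The high WT value belonged to WT_d20_2, and through it the groups overlapped. On the log2 scale KO stood 0.29 above WT (SE 0.139, adjusted p = 0.398), with an unadjusted p of 0.0492, and without WT_d20_2 it was 0.41 (adjusted p = 0.0968). At day 22 *H2afx* was 336, 214, 247 and 302 CPM in KO and 254, 297, 259 and 227 CPM in WT, and the change was 0.08 (SE 0.139). At days 24 and 26 it was 0.10 and 0.09. No day passed the test. The genes most like *H2afx* over the libraries were *Hist1h2bk* and *Hist1h2bl*, which encode H2B, with r of 0.889 and 0.854, and *Slc25a31*, a testis ADP/ATP carrier, with 0.852.

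The H2A.Z genes differed in level, *H2afz* at a median of 101 CPM per kb and *H2afv* at 17.9. *H2afz* was 250, 222, 160 and 155 CPM in KO and 136, 247, 141 and 157 CPM in WT at day 20, and the WT value of 247 CPM was again WT_d20_2. Its log2 fold change at day 20 was 0.21 with that library and 0.43 without it (adjusted p = 0.724 and 0.122). At day 22 its libraries ran from 136 to 217 CPM in KO and from 174 to 195 CPM in WT. At day 24 both KO libraries, at 179 and 188 CPM, were above both WT libraries, at 161 and 160 CPM, which with 2 against 2 libraries was so for 22.6% of all genes. Its log2 fold change over the mean of the days was 0.10 (SE 0.109, adjusted p = 0.659), and 0.16 without WT_d20_2. *H2afv* was 26.7 and 25.0 CPM in KO and 31.6 and 30.6 CPM in WT at day 24, apart in the other direction, as were 21.4% of all genes. Over the mean of the days it was at -0.10 (SE 0.0677, adjusted p = 0.420). Within a library the ratio of *H2afz* to *H2afv* per kilobase ran from 3.87 to 8.44, the highest in WT_d20_2, and up to 7.14 in the other libraries. Over the libraries the pair did not follow each other (r = -0.032). *H2afz* was most like *Triqk* (r = 0.946), *Cisd1* (0.940) and *Zfp788* (0.925), and *H2afv* was most like *Zbtb12* (0.796), *Zfp64* (0.760) and *Lmo4* (0.756).

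*H2afj* was low, with a median of 4.24 CPM per kb. It was 9.94, 8.96, 7.53 and 8.06 CPM in KO and 6.29, 9.48, 6.71 and 8.50 CPM in WT at day 20. At day 26 the KO libraries, at 8.81 and 8.20 CPM, were above the WT libraries, at 7.42 and 6.67 CPM, as were 27.8% of all genes. Its log2 fold change was above 0 at each of the 4 days, and over their mean it was 0.22 (SE 0.0977, unadjusted p = 0.0352, adjusted p = 0.177 by edgeR). *H2afj* was most like *Zik1* (r = 0.785), *1190007I07Rik* (0.784) and *Agbl1* (0.736).

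Neither macroH2A gene passed the test. *H2afy*, at a median of 10.4 CPM per kb, was 66.4, 65.1, 68.3 and 69.3 CPM in KO and 85.3, 47.1, 82.9 and 70.5 CPM in WT at day 20, and the lowest of these was WT_d20_2. At day 22 it was 75.9 to 110 CPM in KO and 71.1 to 77.8 CPM in WT, a log2 fold change of 0.22, and 0.09 without KO_d22_4. Its log2 fold change over the mean of the days was 0.06 (SE 0.0880, adjusted p = 0.759), and 0.02 without WT_d20_2. At day 20 it was -0.09 with that library and -0.26 without it. For *H2afv*, *H2afj* and *H2afy2* the day 20 values moved from 0.10, 0.16 and -0.12 to 0.05, 0.25 and -0.20, and none passed. *H2afy2*, at a median of 2.85 CPM per kb, was 4.79, 5.62, 6.54 and 6.70 CPM in KO and 5.11, 5.58, 6.99 and 7.99 CPM in WT at day 20. At day 26 it was 5.51 and 4.65 CPM in KO and 6.72 and 6.17 CPM in WT, with KO below WT as in 31.1% of all genes. Over the mean of the days *H2afy2* was at -0.24 (SE 0.114, unadjusted p = 0.0462, adjusted p = 0.206 by edgeR). The parent thus had the sign of its copy, at a size whose 95% interval, -0.48 to -0.004, did not reach that of *H2afy3*, -2.06 to -1.48. Over the libraries *H2afy2* and *H2afy3* had an r of 0.326. Among the genes most like *H2afy* were *Ppp5c* (r = 0.920) and *Mdc1* (0.904), which encodes the reader of phosphorylated H2A.X. *H2afy2* was most like *Alpl* (0.824), *Lmna* (0.785) and *Sptbn1* (0.778).

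Per kilobase of exon *H2afx* and *H2afz* were far above the others, with ranges over the libraries of 147 to 245 and 76.3 to 141, and as *H2afz* may be under-counted their order is open. The medians of the other protein-coding genes followed in the order *H2afv*, *H2afy*, *H2afj* and *H2afy2*. The length used for *H2afy* was the union of the exons of 8 transcripts, 6809 bases. Its place and its overlaps with other genes rest on that length. In CPM, with no length, the median was 71.1 for *H2afy* and 29.1 for *H2afv*. With these lengths the place of *H2afy3* differed by genotype. Its WT mean was 14.1 CPM per kb at day 26 against 9.70 for *H2afy*. Its KO mean at day 20, 2.32, was below *H2afj* (4.71) and *H2afy2* (2.72). The place above *H2afy* rests on the lengths taken. With the RefSeq span the WT mean of *H2afy3* at day 26 was 8.22, and in CPM it was 15.7 against 66.1 for *H2afy*. *H2afv*, at 13.8 to 22.2, overlapped with *H2afy*, at 6.91 to 16.1. *H2afy3* ran from 2.07 to 16.0. As a ratio this range was the widest, with its highest library 7.73 times its lowest, against 1.61 to 2.33 times in the other 6 genes. *H2afy3* overlapped with *H2afv*, *H2afy*, *H2afj* (3.32 to 5.77) and *H2afy2* (1.82 to 3.99).

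The course from day 20 to day 26 was examined within each genotype, with no library shared between the courses. In WT, 42.5% of all genes were called and 24.4% were called higher. Of the 7 variant genes 1 was called, *H2afy3*, which rose by 0.77 on the log2 scale (SE 0.259, adjusted p = 0.0215 by edgeR), or 1.70-fold. Without WT_d20_2 it was 0.63 and missed the threshold (adjusted p = 0.0536), as it did without 3 other libraries and with the stage score. With the stage score the WT course called 1 of 17170 genes, with *H2afy3* at 0.60, and the KO course called 1773, with *H2afy3* at 0.88. In KO, 52.2% of all genes were called in the main analysis and 27.2% were called higher, and of the variant genes 3 were called. *H2afy3* rose by 0.97 (SE 0.284, adjusted p = 0.00709), or 1.96-fold, and without KO_d26_2 it was 0.69 and missed the threshold (adjusted p = 0.145), as it did with the stage score. *H2afx* fell by 0.49 (SE 0.174, adjusted p = 0.0230) and *H2afv* fell by 0.36 (SE 0.137, adjusted p = 0.0343), against 24.9% of all genes called lower. Both falls missed the threshold under RLE scaling, a scaling by the median ratio to a reference (-0.40 and -0.27, adjusted p = 0.0606 and 0.103), in the fit of days 20 and 26 alone (0.0539 and 0.116) and with the stage score (-0.11 and -0.26, adjusted p = 0.808 and 0.455), and without single libraries, and that of *H2afv* also with no filter on low counts and by DESeq2 (adjusted p = 0.0742 and 0.0918). In WT *H2afx* was at -0.29 (adjusted p = 0.187) and *H2afv* at -0.21 (adjusted p = 0.222), and the joint test of the KO effect between days was 0.985 and 0.825 for these genes as adjusted p, so the courses are not shown to differ. Tested jointly over the 4 days, *H2afy3* was the 1 member called in WT (adjusted p = 0.0201), against 35.4% of all genes, and the 1 called in KO (adjusted p = 0.0335), against 40.1%.

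**Figure D4:**
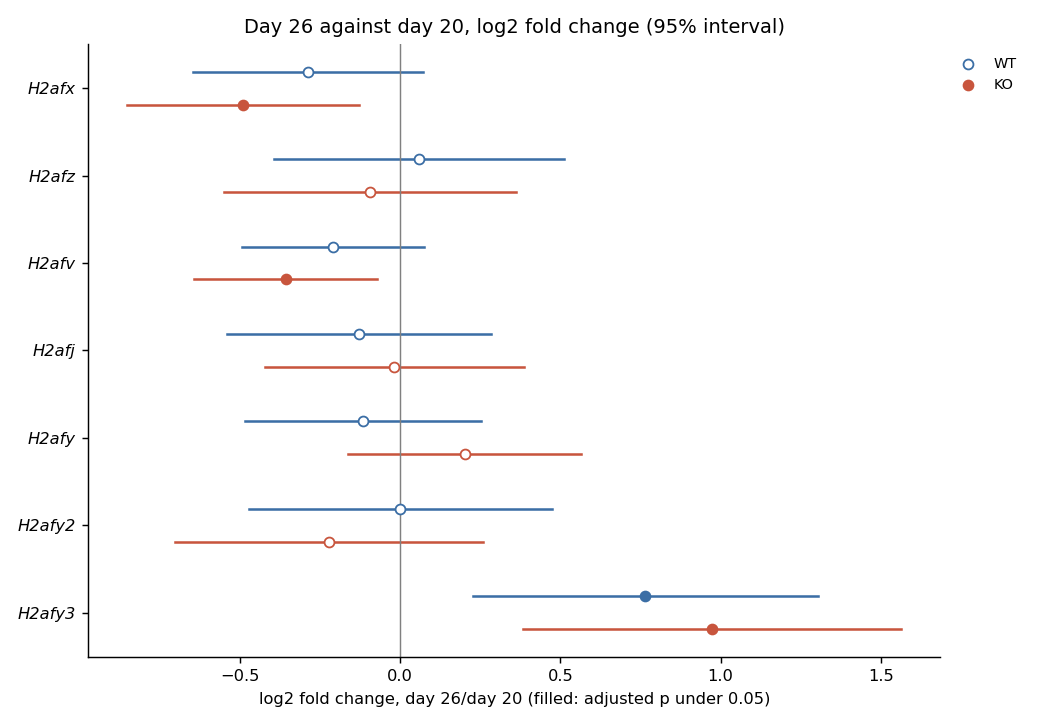
Log2 fold change of day 26 against day 20 (x axis) for each variant gene (y axis) in WT (blue) and KO (red), with 95% intervals from the edgeR fit. Filled points passed the threshold of 0.05 on the adjusted p-value. *H2afy3* rose in both genotypes, by 0.77 and 0.97, and *H2afx* and *H2afv* lie below 0 in both.

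In single libraries, the KO levels of *H2afx* were 237 and 205 CPM at day 26, both below the lowest of day 20, 289 CPM. Those of *H2afv* were 24.7 and 23.3 CPM at day 26, against 33.0, 28.6, 29.9 and 31.7 CPM at day 20. Such a separation downwards in KO held for 35.9% of all genes. In WT, *H2afv* was highest at day 22, at 33.0, 35.4, 36.2 and 28.6 CPM, and at day 26 it was 27.2 and 22.5 CPM. For *H2afz*, *H2afj*, *H2afy* and *H2afy2* the log2 change from day 20 to day 26 lay between -0.22 and 0.20 in both genotypes and did not pass. Without WT_d20_2 the WT changes were 0.25 for *H2afz* in place of 0.06, -0.31 for *H2afy* in place of -0.12, -0.07 for *H2afj* in place of -0.13 and -0.10 for *H2afy2* in place of 0.00, and none passed.

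The makeup of the testis moved over the same days, and in RNA from whole tissue fewer cells of a type and less RNA per cell cannot be told apart. Summed over 12 markers of replicating cells, the level in KO was 1680 to 1790 CPM at day 20 and 1470 to 1490 CPM at day 26, and in WT it was 1480 to 2590 and 1440 to 1460 CPM. All 10 round spermatid markers were called higher at day 26 in each genotype. Across the 24 libraries, the r of *H2afx* with the scores of 11 marker lists ran from -0.548 for elongating spermatids to 0.644 for replicating cells, with early meiosis (0.583), blood (0.533), Sertoli cells (0.500), pachytene (-0.499) and round spermatids (-0.484) close behind. That of *H2afv* ran from -0.516 for elongating spermatids to 0.620 for Sertoli cells, and was 0.534 for replicating cells. For *H2afy3* it ran from -0.592 for blood, of which 3 of 5 markers were tested, to 0.298 for peritubular cells, and was 0.048 for round spermatids. Over the mean of the days 2 of 6 peritubular markers were called lower in KO (median log2 fold change -0.43), 0 of 3 blood markers were called (median 0.37), and 1 of 7 Leydig markers was called higher (median 0.41). Of elongating spermatid markers 8 of 9 were called higher in KO over the mean of the days (median 1.64), and 4 of 9 at day 22 (median 1.80), and of round spermatid markers 6 of 10 over the mean (median 1.24) and 0 at day 22 (median 1.23). At days 24 and 26 none of either list was called. Summed levels at day 22 were 260 to 531 CPM in KO and 506 to 749 CPM in WT for peritubular cells, and 8.72 to 14.5 and 5.17 to 15.5 CPM for blood. The part of cell makeup in the genotype difference and in the courses was not tested.

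Around H2A.Z, the 31 genes of the exchange and removal machinery were examined. They encode subunits of SRCAP and TIP60, complexes that place H2A.Z, subunits of INO80, a related remodeller, and the chaperone ANP32E, which removes H2A.Z. All 31 were tested. None was called in any of the 5 comparisons of genotype by edgeR or DESeq2. At day 26, 8 of 31 had an unadjusted p under 0.05, as did 11.5% of all genes, and the median log2 fold change was 0.20, against -0.04 over all genes. *Anp32e* was at -0.51 there (SE 0.136, adjusted p = 0.161), and *Znhit1*, a SRCAP subunit, was at 0.60 (SE 0.220, adjusted p = 0.296). From day 20 to day 26 in WT, 5 of 31 rose and 2 fell, where 42.5% of all genes were called, 24.4% rose and 18.1% fell. The largest were *Ruvbl2*, an ATPase of these complexes (0.81, SE 0.261, adjusted p = 0.0170), *Morf4l1*, a chromodomain subunit of TIP60 (0.76, SE 0.132), and *Ino80d*, a subunit of INO80 (-0.67, SE 0.122). In KO, 14 rose and 3 fell, where 27.2% of all genes rose and 24.9% fell. Upper quartile scaling moved the median of all genes by -0.16 in the WT course and -0.15 in the KO course, and under it 3 rose and 7 fell in WT, where 20.8% of all genes rose and 28.4% fell, and 10 rose and 6 fell in KO, where 23.4% rose and 32.7% fell. Without WT_d20_2, 5 rose and 5 fell in WT, where 24.4% of all genes rose and 22.0% fell, and *Ruvbl2* was at 0.51 (adjusted p = 0.00921). Its call was lost without WT_d26_2 (adjusted p = 0.145).

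Around H2A.X, 22 genes of its phosphorylation, reading and dephosphorylation were examined, and all were tested. None was called by edgeR in any comparison of genotype, with 0 to 4 of 22 genes at an unadjusted p under 0.05, against 5.23% to 23.2% of all genes. DESeq2 called *Ppp4c*, a phosphatase of phosphorylated H2A.X, higher at day 20, where edgeR gave 0.33 (SE 0.102, adjusted p = 0.0876). From day 20 to day 26 in WT, 4 of 22 rose and 6 fell, where 24.4% of all genes rose and 18.1% fell. Under upper quartile scaling 3 rose and 9 fell, where 20.8% of all genes rose and 28.4% fell. *Ppm1d*, a phosphatase that also acts on this mark, rose by 1.84 (SE 0.169, adjusted p = 7.85e-08), and *Eya4*, of a family of tyrosine phosphatases, rose by 1.29 (SE 0.251, adjusted p = 0.000295). *Atm*, a kinase that makes the mark at breaks, fell by 1.20 (SE 0.298, adjusted p = 0.00285), and was at -0.79 without WT_d20_2 (adjusted p = 0.000621). In KO, 5 rose and 7 fell, where 27.2% of all genes rose and 24.9% fell. Under upper quartile scaling 2 rose and 10 fell in KO, where 23.4% of all genes rose and 32.7% fell. With TMM, *Ppm1d*, *Eya4* and *Atm* were called in KO in the same directions as in WT, at 1.64, 1.67 and -1.12.

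Around macroH2A, 10 genes of ADP-ribose metabolism and macro domains were examined with *Atrx*, a remodeller that binds macroH2A, counted among them. All were tested and none was called by edgeR or DESeq2 in any comparison of genotype, with 0 or 1 of 10 genes at an unadjusted p under 0.05. In the WT course 1 of 10 rose and 2 fell, against 42.5% of all genes called, and in KO 1 rose and 3 fell, against 52.2%. In WT, *Macrod1*, a hydrolase of ADP-ribose marks, rose by 1.34 (SE 0.197, adjusted p = 1.21e-05) from day 20 to day 26. *Atrx* fell by 0.87 (SE 0.216, adjusted p = 0.00271) and *Parg*, which degrades ADP-ribose chains, fell by 0.34 (SE 0.113, adjusted p = 0.0197), a call lost without WT_d26_1 (adjusted p = 0.189). In KO the same 3 were called in the same directions, and *Parp9* also fell. Under upper quartile scaling 1 rose and 4 fell in each genotype. Of all genes, 20.8% then rose and 28.4% fell in WT, and 23.4% rose and 32.7% fell in KO. Without WT_d20_2, 1 rose and 4 fell in WT, where 24.4% of all genes rose and 22.0% fell.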

How the data were processed

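The authors prepared ribosome-depleted, strand-specific total RNA libraries, aligned the read pairs to mm10 with STAR 2.7.11b and counted them in exons with HTSeq. What was deposited is a table of raw, unnormalized counts for each library, by gene symbol. The authors normalized with DESeq2 1.22.2 in their own comparison. The version of their gene models is not given in the sources used here, and positions come from the GENCODE annotation and RefSeq GRCm38. The 5 tallies of unassigned pairs (45.1% to 58.5% overlapping no feature, 4.74% to 13.7% with several alignments) were kept out. The labels give 4 libraries per genotype at day 20 where the study's text gives fewer, and all were used. The study calls the libraries biological replicates.

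Tests were quasi-likelihood fits in edgeR 4.0.16 (R 4.3.3, limma 3.58.1, TMM, filterByExpr at a minimum count of 10, robust fit, 8 groups over 24 libraries), two-sided, with Benjamini-Hochberg adjustment over 17170 genes and a threshold of 0.05. The steps were tested on simulated data. Correlations used log2 CPM with a prior count of 2. Named were all 7 variant genes, the 3 genes most correlated with each (1 of those for *H2afy* is not reported here), and from each list the genes called by genotype and the 3 largest WT changes from day 20 to day 26 among those past the threshold, and other named genes were chosen after their values were seen. Genes and lists were chosen with earlier results of these data known. Alternatives were DESeq2 1.42.0, relative log expression (RLE) and upper quartile scaling, no filter, single days, a replicate block, the stage score (round spermatid minus pachytene marker score) as covariate, and leaving out each library. PCR copies carry no molecular identifiers. Each of the 28 within-group pairs of libraries differed by more than sampling noise, and pairs across groups were not compared.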

Additional observations from a re-analysis of the deposited data

Results flagged for a closer look

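*H2afv* in WT_d20_3 was 33.5 CPM, with the other WT libraries of day 20 at 27.9, 26.9 and 26.8 CPM. Its gap to the nearest library was 0.833 of the range, above Dixon's critical value of 0.829 for 4 samples. It was 1 of 28 groups of 4 libraries examined, and chance alone marks about 1 in 20.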

How the results depend on the processing

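The *H2afy3* difference kept its sign under every alternative run. Leaving out 1 library at a time gave -1.94 to -1.60 at day 20, -2.25 to -1.82 at day 22, -1.96 to -1.34 at day 24, -1.88 to -1.38 at day 26 and -1.85 to -1.70 over the mean of the days, with 1 member called at day 20, at day 22 and over the mean throughout. At days 24 and 26 the number of members called was 0 in the main analysis and ran from 0 to 1. *H2afy3* passed at both days without WT_d20_1, WT_d20_2, KO_d22_1 or KO_d22_2 (adjusted p = 0.0213, 0.0332, 0.0291 and 0.0250 at day 24, and 0.0270, 0.0224, 0.0452 and 0.0197 at day 26), and at day 26 also without KO_d22_4 (0.0488). It was the 1 member called at day 24 under upper quartile scaling, the stage score and DESeq2 (0.0990%, 0.221% and 0.243% of all genes called), and the 1 called at day 26 under these (0.0582%, 0.215% and 0.948%) and in the fit of that day alone (12.8%). With the stage score 0 members were called at day 20, where 5 of 17170 genes were called. It also called 0 members in the WT course from day 20 to day 26 (1 gene of all) and in the KO course (1773). Among the WT days and among the KO days it called 0 members too (369 and 588 genes of all).

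The courses depended more on the choices. Upper quartile scaling moved the median of all genes by -0.16 in WT and -0.15 in KO, and the share of called genes that were higher from 57.4% to 42.2% and from 52.2% to 41.6%. Under it, 3 members were called in the WT course (49.1% of all genes) and 2 among the WT days (41.1%), and 3 among the KO days (43.9%). RLE scaling and the fit of days 20 and 26 alone each called 1 member in the KO course (50.5% and 43.6% of all genes). Without WT_d20_2 the share of all genes called reached 46.4% in the WT course and 59.1% in the KO course. It reached 40.5% among the WT days and 51.5% among the KO days. These shares were lower where a day 26 library of that genotype was left out. For the KO effect between days the share reached 0.817%, without KO_d20_2. Leaving out 1 library gave 0 to 1 members in the WT course, 0 to 3 in the KO course, 0 to 2 among the WT days and 0 to 3 among the KO days, and 0 throughout for the KO effect between days. The *H2afy3* rise in WT was lost without WT_d20_2 (0.63), WT_d20_3 (0.65), WT_d26_1 (0.87) or WT_d26_2 (0.64), and in KO without KO_d26_2 (0.69). The *H2afx* fall in KO was lost without KO_d20_1 (-0.45), KO_d26_1 (-0.61) or KO_d26_2 (-0.41), and the *H2afv* fall without KO_d20_1 (-0.32), KO_d20_4 (-0.34), KO_d26_1 (-0.41) or KO_d26_2 (-0.33). For the joint test among WT days, *H2afy3* was lost without WT_d20_3 or WT_d20_4 (adjusted p = 0.0585 and 0.0506), and among KO days without any 1 of the 4 KO libraries of day 20 or KO_d26_2 (0.0619 to 0.105).

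Signs that turned belonged to values that had not passed. With the stage score these were *H2afz* at day 22 (0.09), *H2afx* (0.38), *H2afj* (0.26) and *H2afy2* (-1.08) in the WT course, and *H2afz* (0.44) and *H2afj* (0.21) in the KO course. Upper quartile scaling turned *H2afz* (-0.11) and *H2afy2* (-0.16) in the WT course, and RLE scaling turned *H2afv* at day 26 (0.00). *H2afj* in the KO course turned to 0.07 under RLE scaling and DESeq2, 0.01 with no filter and 0.03 with days 20 and 26 alone. Leaving out 1 library turned *H2afy* at day 20 (-0.26 to 0.00), *H2afy2* at days 20 and 24 (-0.22 to 0.01, -0.49 to 0.15), *H2afx*, *H2afz* and *H2afj* at day 22 (-0.03 to 0.19, -0.20 to 0.02, -0.02 to 0.16), *H2afz* and *H2afv* at day 26 (-0.06 to 0.19, -0.18 to 0.10), *H2afz* and *H2afy2* in the WT course (-0.07 to 0.25, -0.13 to 0.09), and *H2afz* and *H2afj* in the KO course (-0.19 to 0.04, -0.08 to 0.06). The cause was not tested.

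Replicate numbers shared by WT and KO were not taken as pairs, since nothing in the labels says that a number marks a shared litter or day and not every same-numbered pair correlated above 0.1. The correlation was -0.459 to 0.416 over 12 pairs, above 0.1 and highest with the own number in 7, which lie at days 20, 24 and 26, and below 0 in all 4 of day 22. At days 24 and 26, with 2 libraries a group, both pairs share 1 value by construction. With the replicate block the *H2afy3* value was -1.80 at day 20 (adjusted p = 0.00154) and -1.78 over the mean of the days (6.54e-06), and no count of members called changed. At 2 libraries per genotype, and at 53 to 141 *H2afy2* pairs per library, small differences were not detectable.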
